A study of Mus musculus with 15 samples.

Results

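Endothelins, adrenomedullin, apelin and chemerin are secreted factors that act on blood vessels and fat, and their ligand and receptor genes were followed here in the fat around the mouse aorta. The set held 10 genes, chosen by symbol as vasoactive ligands and receptors: Edn1 with Ednra and Ednrb, Adm with Calcrl and Ramp2, Apln with Aplnr, and Rarres2 with Cmklr1. These were 10 of the 43352 genes in the table, and all 10 were among the 19645 genes that passed the filter on low counts.

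Poly(A) RNA of perivascular adipose tissue (PVAT) was sequenced in 4 groups of mice, all aged 11 weeks and all carrying floxed Prdm16 alleles. PRDM16 is a transcriptional regulator known for its part in the brown and beige fat programme. The conditional knockout mice (cKO, Prdm16flox, AdipoQCre+) also carried a Cre recombinase under the control of the adipocyte gene Adipoq, and the controls (Prdm16flox) carried the floxed alleles alone. The libraries were 4 of thoracic PVAT from cKO mice (tPVAT cKO), 4 of thoracic PVAT from controls (tPVAT control), 3 of abdominal PVAT from cKO mice (aPVAT cKO 1, 3 and 4) and 4 of abdominal PVAT from controls (aPVAT control). The labels give neither the sex of the mice nor the deleted exon. Nothing in them states that each sample came from its own animal, and the p-values therefore describe the spread among these libraries, which may be partly technical.

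Endothelin 1 is made mainly by endothelium and constricts vessels through the receptor EDNRA on smooth muscle, while EDNRB on endothelium also clears it from the blood. Adrenomedullin relaxes vessels through CALCRL, which binds it when paired with the small membrane protein RAMP2, and apelin acts through APLNR, a receptor abundant in endothelium. Chemerin, the product of Rarres2, is secreted by fat and liver as a precursor, is switched on by proteases, and signals through CMKLR1 on adipocytes, macrophages and other immune cells.

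Prdm16 itself was lower in cKO libraries, at 21.2 to 23.8 CPM (counts per M of scaled library size) in tPVAT cKO against 41.1 to 55.6 CPM in tPVAT control, and at 14.7 to 18.3 CPM in aPVAT cKO against 21.4 to 26.8 CPM in aPVAT control. Its log2 fold change was -1.08 (standard error, SE, 0.0970) in tPVAT and -0.57 (SE 0.105) in aPVAT, with adjusted p = 2.22e-06 and 0.00992 by edgeR's quasi-likelihood test. In aPVAT it no longer passed when aPVAT cKO 1 or aPVAT cKO 3 was left out (adjusted p = 0.0692 and 0.0591), in a range of 5.38e-05 to 0.0739 over all alternatives. Libraries held 37.8 to 68.7 M counts, fewest in aPVAT cKO 4. Genes of the mitochondrial genome took 26.5 to 36.4% of the counts in tPVAT and 13.0 to 16.0% in aPVAT. Structural RNA took 2.24% in aPVAT cKO 4 and 0.929% in aPVAT control 2, and at most 0.213% elsewhere. The adipocyte genes Adipoq and Plin1 were at 807 to 1837 and 721 to 1016 CPM over the 15 libraries, and the endothelial gene Pecam1 at 237 to 564 CPM. In bulk tissue, fewer cells of a type and less RNA per cell cannot be told apart.

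One of the 10 genes passed the threshold (an adjusted p under 0.05) between genotypes: Cmklr1, the chemerin receptor, was 1.97-fold higher in tPVAT cKO than in tPVAT control. That is 1 gene higher of 10, where 5.44% of all genes tested were called higher in tPVAT cKO, and 0 lower of 10, where 6.61% were. At an unadjusted p under 0.05, 2 of the 10 passed in tPVAT, Cmklr1 and, in the lower direction, Ramp2, against 26.0% of all genes. Limma-voom with a weight per library called 1 lower, Ramp2, where it called 2246 of 19645 genes lower. The fit of the tPVAT libraries alone called 4 of the 10, Cmklr1, Calcrl, Ramp2 and Rarres2, where it called 3726 of 17983 genes. The median log2 fold change of the 10 was 0.166 in tPVAT, beside -0.0134 over all genes. In aPVAT 0 of the 10 passed, where 1.53% of all genes did. There, 2 of the 10, Apln and Cmklr1, had an unadjusted p under 0.05 by edgeR, against 12.4% of all genes. DESeq2 called 1, Apln, where it called 604 of 19645 genes. The median of the 10 in aPVAT was 0.0916, beside -0.0099 over all genes. Scaling by library size alone moved the share of called genes that were higher in cKO to 66.9% in tPVAT (main scaling 45.2%) and 36.6% in aPVAT (main scaling 48.5%), and called the same number of the 10 in each.

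The depots differed in more of the set. Edn1, Ednra, Adm, Ramp2, Aplnr and Cmklr1 were higher in aPVAT than in tPVAT in both genotypes, Apln in cKO mice and Rarres2 in controls. That made 7 of 10 called higher in cKO mice, against 27.2% of all genes, and 7 of 10 in controls, against 29.3%. Every aPVAT library lay above every tPVAT library for 7 of 10 genes in cKO mice (the 6 and Calcrl), against 27.4% of all genes, and for 7 of 10 in controls (the 6 and Rarres2), against 25.4%. None of the 10 was called lower in aPVAT, against 25.4% of all genes in cKO mice and 27.3% in controls, and at an unadjusted p under 0.05 the count of lower genes was also 0 in both. The median log2 fold change of the 10 (aPVAT over tPVAT) was 0.771 in cKO mice and 0.907 in controls, beside 0.0409 and 0.0384 over all genes. Scaling by library size alone moved the median of all genes to 0.694 and 0.784, and the share of called genes that were higher to 90.6% and 91.2%, from 51.7% in each genotype. Under that scaling all 10 were called higher in both genotypes, as were 13596 of all 19645 genes in cKO mice and 14618 in controls. The size of a depot difference, and some of the calls, thus depend on the scaling. Library size alone moved differences upward, so Ednrb, not called by the main scaling, passed at 0.85 in cKO mice and 0.94 in controls. Calls of genes lower in aPVAT could be lost, as given below for Ackr3 and Furin.

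**Figure D1:**
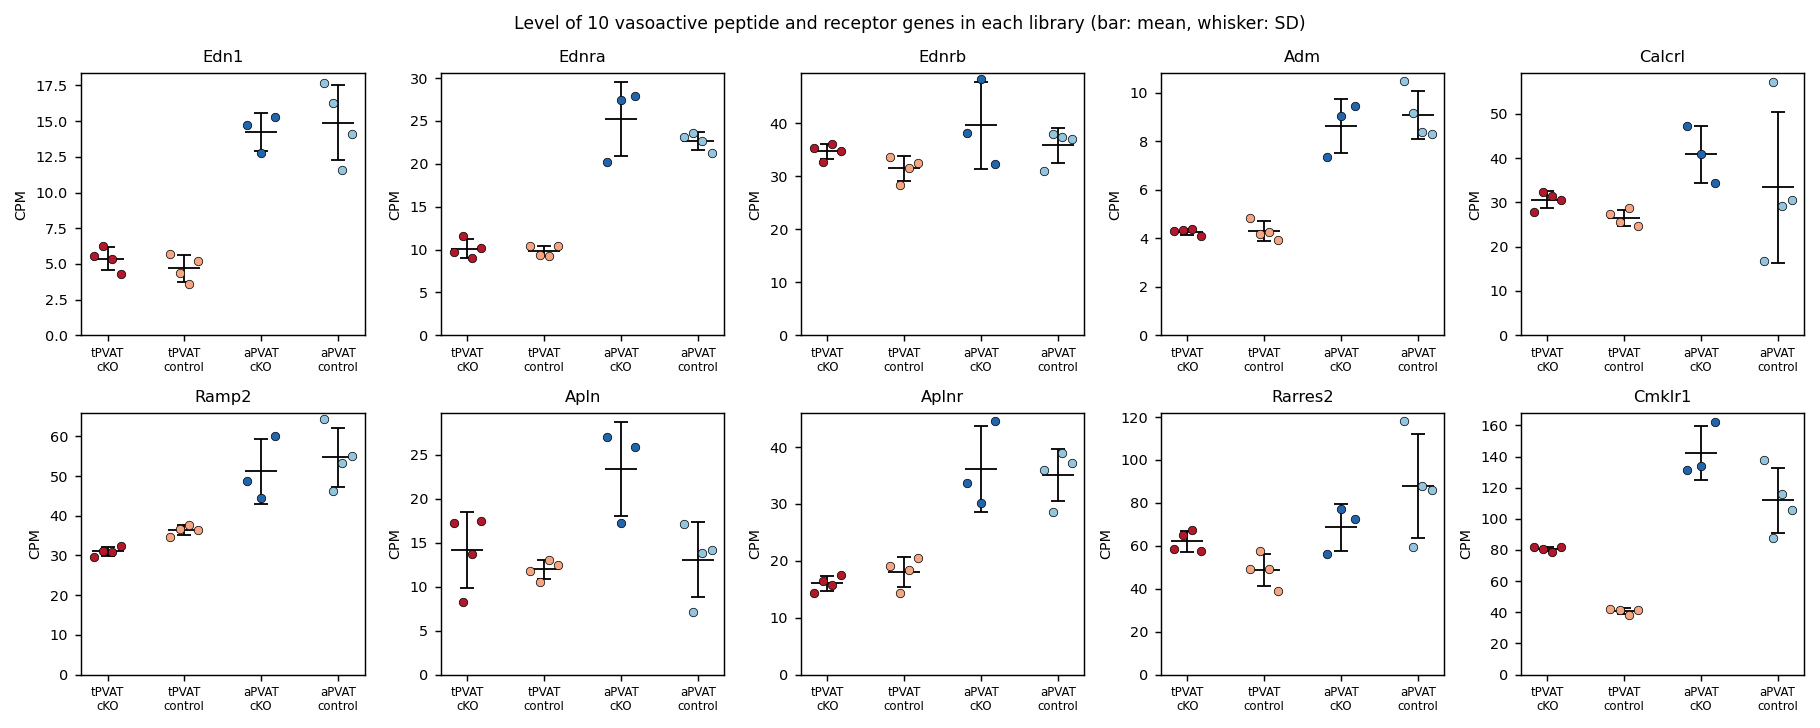
Level of each of the 10 genes in CPM in every library; each point is 1 library, the bar is the group mean and the whisker the SD (n = 4, 4, 3 and 4 for tPVAT cKO, tPVAT control, aPVAT cKO and aPVAT control). Cmklr1 was near 81 CPM in each tPVAT cKO library and at most 42.3 CPM in tPVAT control, while Edn1, Ednra, Adm, Ramp2, Aplnr and Cmklr1 were higher in aPVAT than in tPVAT without overlap.

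On a scale corrected for transcript length (RPKM, the CPM divided by the length of the principal transcript in kilobases), which allows levels of different genes to be compared, Rarres2 was highest in each group. It averaged 78.0 ± 6.04 RPKM in tPVAT cKO (SD, n = 4), 61.3 ± 9.61 in tPVAT control (n = 4), 86.4 ± 13.8 in aPVAT cKO (n = 3) and 110 ± 30.3 in aPVAT control (n = 4). Cmklr1 followed in both cKO groups, at 28.0 ± 0.51 RPKM in tPVAT cKO and 49.4 ± 5.96 in aPVAT cKO, and there its range overlapped that of Ramp2. In both control groups Ramp2 came before Cmklr1, at 30.9 ± 1.10 against 14.2 ± 0.664 RPKM in tPVAT control, without overlap, and at 46.4 ± 6.33 against 38.8 ± 7.22 in aPVAT control, with overlap. The other 7 genes averaged between 2.20 RPKM (Edn1) and 8.45 RPKM (Ednrb) in tPVAT, and between 4.15 RPKM (Apln) and 9.77 RPKM (Aplnr) in aPVAT. In tPVAT the order after Cmklr1 and Ramp2 was Ednrb, then Calcrl, without overlap between these neighbours, then Apln and Aplnr, whose ranges overlapped. Adm, Ednra and Edn1 came last there, with overlap between Adm and Ednra and between Ednra and Edn1. In aPVAT the ranges of neighbours from Aplnr down overlapped, apart from Apln, which lay below Ednra in controls. The order at the top depends on the length used: with all exons of a gene joined, Cmklr1 came first and Rarres2 second in both cKO groups, and Cmklr1 came before Ramp2 in all 4 groups.

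The RefSeq promoter windows of Cmklr1 and Edn1, the 2 members whose group means spread widest, are shown, each as 300 bases (250 before and 50 from the start) read 5′ to 3′ on the gene's strand. The Cmklr1 window is chr5:113643554-113643853 (minus strand) and the Edn1 window chr13:42301226-42301525 (plus strand), both on GRCm38.p6. Capitals mark matches, on either strand, to the CCAAT box (CCAAT), the hypoxia response core (ACGTG) and a GATA site (AGATAA).
Cmklr1: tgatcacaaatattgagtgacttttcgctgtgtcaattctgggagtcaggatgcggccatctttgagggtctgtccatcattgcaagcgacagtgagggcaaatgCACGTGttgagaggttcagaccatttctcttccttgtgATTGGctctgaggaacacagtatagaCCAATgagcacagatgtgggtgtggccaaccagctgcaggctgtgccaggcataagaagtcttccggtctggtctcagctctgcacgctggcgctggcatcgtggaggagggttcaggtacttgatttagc
Edn1: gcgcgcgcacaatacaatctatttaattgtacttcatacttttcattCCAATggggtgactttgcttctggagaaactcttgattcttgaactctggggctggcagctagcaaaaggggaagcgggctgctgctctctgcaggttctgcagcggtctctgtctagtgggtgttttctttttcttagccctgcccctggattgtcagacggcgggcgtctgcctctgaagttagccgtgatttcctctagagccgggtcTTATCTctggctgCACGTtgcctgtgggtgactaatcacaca
The Cmklr1 window held 2 CCAAT boxes, 1 on each strand, and the palindrome CACGTG, which reads as the hypoxia core on both strands. The Edn1 window held 1 CCAAT box, 1 hypoxia core and 1 GATA site. Of the 10 members 7 had a window in the table: CCAAT occurred in 3 of the 7, ACGTG in 2 and AGATAA in 1. Of all 32851 windows of the same length, 37.4% held CCAAT, 19.6% ACGTG and 11.2% AGATAA. The TATA box, searched as TATAAA, was found in 0 of the 7 windows and in 13.6% of all windows. The AP-1 site, searched as TGANTCA, was also in 0 of the 7 and in 7.81% of all. These matches describe the letters and say nothing of what binds there. The GENCODE model of Cmklr1 reaches further upstream, so the RefSeq start lies inside it.

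Edn1 (ENSMUSG00000021367, chr13:42301476-42307990 on the plus strand, GRCm38), the ligand of the endothelin system, had 5.56, 6.24, 5.37 and 4.30 CPM in tPVAT cKO, against 5.68, 4.33, 3.56 and 5.23 CPM in tPVAT control. It had 14.7, 12.8 and 15.3 CPM in aPVAT cKO, against 17.7, 16.3, 11.6 and 14.1 CPM in aPVAT control. The genotypes overlapped in both depots, while every aPVAT library lay above every tPVAT library. The log2 fold change of cKO over control was 0.19 (SE 0.159, adjusted p = 0.487) in tPVAT and -0.06 (SE 0.160, adjusted p = 0.903) in aPVAT. The 95% intervals were -0.15 to 0.53 in tPVAT and -0.40 to 0.28 in aPVAT. Between depots Edn1 was 2.65-fold higher in aPVAT cKO than in tPVAT cKO (log2 1.41, SE 0.164, adjusted p = 3.43e-06) and 3.17-fold higher in aPVAT control than in tPVAT control (log2 1.66, SE 0.157, adjusted p = 2.46e-07).

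Ednra (ENSMUSG00000031616, chr8:77663031-77724464, minus strand), the receptor through which endothelin constricts smooth muscle, had 9.71, 11.6, 8.99 and 10.2 CPM in tPVAT cKO, against 10.4, 9.35, 9.28 and 10.4 CPM in tPVAT control. In aPVAT it had 20.2, 27.5 and 28.0 CPM in cKO, against 23.1, 23.6, 22.7 and 21.3 CPM in control. The genotypes overlapped again, with log2 fold changes of 0.04 (SE 0.103) in tPVAT and 0.15 (SE 0.106) in aPVAT and adjusted p = 0.850 and 0.592. The depots did not overlap: Ednra was 2.49-fold higher in aPVAT cKO than in tPVAT cKO (adjusted p = 6.69e-08) and 2.30-fold higher in aPVAT control than in tPVAT control (adjusted p = 6.70e-08).

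Ednrb (ENSMUSG00000022122, chr14:103814625-103844402, minus strand), the second endothelin receptor, did not show that depot difference. It had 35.3, 32.7, 36.1 and 34.7 CPM in tPVAT cKO, against 33.7, 28.3, 31.6 and 32.5 CPM in tPVAT control. It had 38.2, 48.5 and 32.3 CPM in aPVAT cKO, against 31.0, 38.0, 37.4 and 37.1 CPM in aPVAT control. All 4 groups overlapped. The log2 fold change of cKO over control was 0.14 (SE 0.104, adjusted p = 0.431) in tPVAT and 0.15 (SE 0.111, adjusted p = 0.626) in aPVAT. That of aPVAT over tPVAT was 0.19 in each genotype (95% intervals -0.04 to 0.43 in cKO and -0.03 to 0.41 in control, adjusted p = 0.160 and 0.137). Without aPVAT cKO 4 the difference in cKO mice was 0.32 (adjusted p = 0.0207), and without aPVAT control 1 that in controls was 0.25 (adjusted p = 0.0482). Over all alternatives these adjusted p-values ran from 1.26e-05 to 0.879 and from 1.90e-06 to 0.311.

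Adm (ENSMUSG00000030790, chr7:110627661-110629820, plus strand), the precursor of the dilator adrenomedullin, lay close together in the genotypes. Its levels were 4.29, 4.34, 4.36 and 4.08 CPM in tPVAT cKO, against 4.85, 4.16, 4.25 and 3.92 CPM in tPVAT control. In aPVAT they were 7.35, 9.02 and 9.46 CPM in cKO, against 10.5, 9.15, 8.39 and 8.30 CPM in control. The genotypes overlapped, with log2 fold changes of -0.01 (SE 0.105) in tPVAT and -0.08 (SE 0.107) in aPVAT and adjusted p = 0.967 and 0.796. The 95% intervals were -0.23 to 0.21 in tPVAT and -0.31 to 0.15 in aPVAT. Adm was 2.01-fold higher in aPVAT cKO than in tPVAT cKO and 2.11-fold higher in aPVAT control than in tPVAT control (adjusted p = 1.58e-06 and 2.80e-07), without overlap in either genotype.

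Calcrl (ENSMUSG00000059588, chr2:84330626-84425411, minus strand) encodes the receptor shared by adrenomedullin and calcitonin gene-related peptide. It had 27.9, 32.3, 31.5 and 30.6 CPM in tPVAT cKO, against 27.4, 25.5, 28.7 and 24.7 CPM in tPVAT control. It had 47.2, 40.9 and 34.4 CPM in aPVAT cKO, against 16.7, 57.1, 29.2 and 30.5 CPM in aPVAT control. The aPVAT controls thus held both the lowest and the highest of the 15 values, in control 1 and control 2. The log2 fold change of cKO over control was 0.20 (SE 0.243, adjusted p = 0.642) in tPVAT and 0.29 (SE 0.258, adjusted p = 0.677) in aPVAT. With both aPVAT control 2 and aPVAT cKO 4 left out, the aPVAT difference was 0.79 (adjusted p = 0.0434, range over all alternatives 0.0434 to 0.972). In the fit of the 8 tPVAT libraries alone, the tPVAT difference was 0.22 (adjusted p = 0.0386, range 0.0386 to 0.753). In aPVAT cKO each library lay above each tPVAT cKO library, but the difference of 0.42 (SE 0.259) had adjusted p = 0.187. It was called, with nearly the same size, without aPVAT control 2 (adjusted p = 0.0374, range 0.00160 to 0.426). The difference in controls, 0.33 (SE 0.242, adjusted p = 0.261), was -0.06 without aPVAT control 2 and 0.55 without aPVAT control 1 (adjusted p = 0.773 and 0.0177, range 0.000870 to 0.773).

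Ramp2 (ENSMUSG00000001240, chr11:101246028-101259546, plus strand), the partner that makes CALCRL an adrenomedullin receptor, had 29.7, 31.2, 31.0 and 32.4 CPM in tPVAT cKO, against 34.6, 36.7, 37.8 and 36.3 CPM in tPVAT control. The tPVAT genotypes did not overlap, as held with lower cKO values for 12.2% of all genes, but the log2 fold change of -0.23 (SE 0.0975) had adjusted p = 0.152. It passed with a weight per library in limma-voom (adjusted p = 0.0299), with tPVAT libraries alone (adjusted p = 0.0139) and without aPVAT control 2 and aPVAT cKO 4 (adjusted p = 0.0359), within a range of 0.0139 to 0.335. In aPVAT it had 48.8, 44.5 and 60.2 CPM in cKO, against 64.3, 46.1, 53.2 and 55.2 CPM in control, where the groups overlapped and the log2 difference was -0.10 (SE 0.104, adjusted p = 0.736). Ramp2 was 1.65-fold higher in aPVAT cKO than in tPVAT cKO (adjusted p = 3.24e-05) and 1.5-fold higher in aPVAT control than in tPVAT control (adjusted p = 8.69e-05), without overlap. Its exons share 33.4% of their bases with Vps25 on the same strand, so reads of these 2 genes may be split by the counting.

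Apln (ENSMUSG00000037010, chrX:48025146-48034853, minus strand), the ligand of the apelin system, had 17.2, 8.26, 13.7 and 17.5 CPM in tPVAT cKO, against 11.8, 10.5, 13.0 and 12.4 CPM in tPVAT control. It had 27.0, 17.2 and 25.9 CPM in aPVAT cKO, against 17.1, 7.10, 13.8 and 14.2 CPM in aPVAT control. In aPVAT the lowest cKO library thus lay just above the highest control, which held with higher cKO values for 3.76% of all genes. The log2 fold change of cKO over control in aPVAT was 0.84 (SE 0.261), a 1.78-fold difference that missed the threshold (unadjusted p = 0.00568, adjusted p = 0.161). DESeq2 gave the same 0.84 with adjusted p = 0.0436, the lowest of a range that reached 0.423. In tPVAT the difference was 0.24 (SE 0.249, adjusted p = 0.584), and the difference between the genotype effects, aPVAT minus tPVAT, was 0.59 (SE 0.361, adjusted p = 0.727). Apln was 1.65-fold higher in aPVAT cKO than in tPVAT cKO (adjusted p = 0.0295), with overlap. That call was lost without tPVAT cKO 2 or 3 or without aPVAT cKO 1 or 4 (adjusted p = 0.0710, 0.0584, 0.110 and 0.0877, range 9.72e-05 to 0.110). In controls the depot difference was 0.13 on the log2 scale (SE 0.247, adjusted p = 0.672).

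Aplnr (ENSMUSG00000044338, chr2:85136225-85139923, plus strand), the apelin receptor, had 14.4, 16.4, 15.8 and 17.5 CPM in tPVAT cKO, against 19.0, 14.3, 18.4 and 20.5 CPM in tPVAT control. It had 33.7, 30.1 and 44.6 CPM in aPVAT cKO, against 36.0, 28.5, 38.9 and 37.2 CPM in aPVAT control. Genotypes overlapped in both depots, with log2 fold changes of -0.17 (SE 0.134) in tPVAT and 0.04 (SE 0.141) in aPVAT and adjusted p = 0.465 and 0.937. Aplnr was 2.25-fold higher in aPVAT cKO than in tPVAT cKO (adjusted p = 5.43e-06) and 1.95-fold higher in aPVAT control than in tPVAT control (adjusted p = 1.56e-05), without overlap.

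Rarres2 (ENSMUSG00000009281, chr6:48569696-48572789, minus strand), which encodes the chemerin precursor, had 58.5, 64.9, 67.2 and 57.4 CPM in tPVAT cKO, against 49.0, 57.6, 49.4 and 38.9 CPM in tPVAT control. It had 56.4, 77.3 and 72.4 CPM in aPVAT cKO, against 118, 59.3, 87.8 and 86.1 CPM in aPVAT control. The tPVAT groups overlapped by a single library each, and aPVAT control spread widest. The log2 fold change of cKO over control was 0.35 (SE 0.167, adjusted p = 0.202) in tPVAT and -0.35 (SE 0.180, adjusted p = 0.440) in aPVAT. The difference between these effects, aPVAT minus tPVAT, was -0.70 (SE 0.245, unadjusted p = 0.0115, adjusted p = 0.337). With the 8 tPVAT libraries alone, the tPVAT difference passed at 0.37 (adjusted p = 0.0316, range 0.0316 to 0.408). Rarres2 was 1.80-fold higher in aPVAT control than in tPVAT control (adjusted p = 0.000437, no overlap). The same difference in cKO mice was 1.11-fold (log2 0.15, SE 0.179, adjusted p = 0.509). Its exons share 33.6% of their bases with Lrrc61 on the opposite strand, and without a known strand setting the reads of both cannot be told apart.

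Cmklr1 (ENSMUSG00000042190, chr5:113612354-113650426, minus strand), the signalling receptor for chemerin, had 81.8, 80.6, 78.7 and 81.8 CPM in tPVAT cKO, against 42.3, 41.6, 38.1 and 41.8 CPM in tPVAT control. The groups did not overlap, as held with higher cKO values for 11.0% of all genes, and no cKO library was under 78.7 CPM. The means were 80.7 ± 1.47 CPM in tPVAT cKO and 40.9 ± 1.91 CPM in tPVAT control (SD, n = 4 each). The log2 fold change was 0.98 (SE 0.108, 95% interval 0.75 to 1.21, adjusted p = 1.73e-05), and under all alternatives it stayed between 0.95 and 1.05 and passed. In aPVAT it had 131, 134 and 162 CPM in cKO, against 138, 87.8, 116 and 106 CPM in control. There 1 control, aPVAT control 1, lay above 2 of the 3 cKO libraries, and the log2 fold change was 0.35 (SE 0.114, 95% interval 0.10 to 0.59, unadjusted p = 0.00794, adjusted p = 0.187). Without aPVAT control 1 it was 0.46 (adjusted p = 0.0267, range 0.0267 to 0.480).

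The genotype effect on Cmklr1 in aPVAT minus that in tPVAT was -0.63 (SE 0.157, 95% interval -0.97 to -0.30, unadjusted p = 0.00102), which missed the threshold at adjusted p = 0.0893. None of the 10 genes passed this test of a depot-dependent effect by edgeR, where 0.784% of all genes did, and 2, Cmklr1 and Rarres2, had an unadjusted p under 0.05, against 8.85% of all genes. DESeq2 and limma-voom with a weight per library each called 1 of the 10, Cmklr1, at adjusted p = 0.0144 and 0.0152. It was also called without aPVAT control 2 (-0.73, adjusted p = 0.00870), in a range of 0.00252 to 0.227. Between depots, Cmklr1 was 1.76-fold higher in aPVAT cKO than in tPVAT cKO (adjusted p = 2.22e-05) and 2.73-fold higher in aPVAT control than in tPVAT control (adjusted p = 1.71e-08), without overlap. The level in tPVAT cKO, 80.7 CPM, thus lay between those of tPVAT control and aPVAT control (112 ± 20.8 CPM, n = 4).

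**Figure D2:**
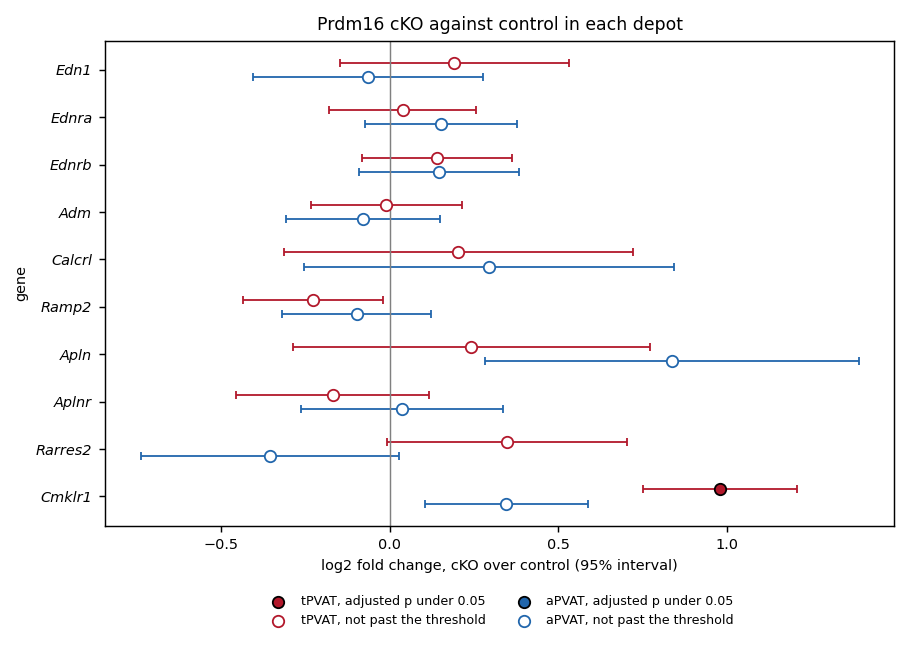
Log2 fold change of cKO over control for each gene with its 95% interval, in tPVAT (red) and aPVAT (blue), from edgeR; filled circles mark an adjusted p under 0.05. Only Cmklr1 in tPVAT, at 0.98, is filled, and the aPVAT interval of Apln (0.28 to 1.39) also lies above 0 although its adjusted p was 0.161.

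The marker genes of the cell types that carry these receptors moved as follows in tPVAT. Of 14 adipocyte markers, 6 were higher and 0 lower in cKO (Adipoq, Plin1, Plin4, Fabp4, Retn, which encodes resistin, and Cfd, which encodes adipsin). The median of the 14 was 0.357, with 12 positive and 2 negative. Retn differed by 2.0 (SE 0.118, adjusted p = 2.62e-08) and Cfd by 1.25 (SE 0.103, adjusted p = 8.78e-07) on the log2 scale. The summed adipocyte level was 28741 to 29815 CPM in tPVAT cKO and 21857 to 22994 CPM in tPVAT control, without overlap. Of 10 macrophage markers 0 passed in tPVAT, by edgeR, and their summed level was 405 to 528 CPM in tPVAT cKO and 464 to 523 CPM in tPVAT control. The Cmklr1 difference thus stood beside a difference in adipocyte markers and overlapping sums of macrophage markers, and the part of either in it was not tested. In aPVAT the macrophage sum was 563 to 821 CPM in cKO and 803 to 1116 CPM in control, with a median of -0.477 over the 10 markers, all negative and 0 of them called. The adipocyte sum in aPVAT was 27833 to 34071 CPM in cKO and 25305 to 28055 CPM in control, with overlap. Of the 14 adipocyte markers 1 was called higher and 0 lower in aPVAT cKO by edgeR. Their median there was 0.0495, with 8 positive and 6 negative.

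Markers of vessel cells went the other way in tPVAT. Of 16 endothelial markers 4 were lower in cKO (Tie1, Kdr, Flt1 and Esam) and 12 did not pass, with a median of -0.223, all 16 negative. Tie1, an endothelial receptor kinase, differed by -0.36 (SE 0.0758, adjusted p = 0.00528) and Kdr, a receptor of vascular endothelial growth factor, by -0.32 (SE 0.0722, adjusted p = 0.00783). Scaling by library size alone left Kdr at -0.25 with adjusted p = 0.0639, in a range of 0.000297 to 0.0639. Of 7 pericyte markers 4 were lower (Pdgfrb, Kcnj8, Abcc9 and Notch3), with a median of -0.355, all 7 negative. Of 10 smooth muscle markers 1 was called lower, Des, but all 10 were negative, and their median was -0.318. Smooth muscle sums were 2115 to 2302 CPM in tPVAT cKO and 2464 to 3169 CPM in tPVAT control, without overlap. Pericyte sums overlapped, at 583 to 731 CPM in tPVAT cKO and 705 to 745 CPM in tPVAT control. The summed endothelial level was 1297 to 1335 CPM in tPVAT cKO and 1486 to 1658 CPM in tPVAT control. Ramp2, at -0.23, lay near the endothelial median in tPVAT, and Aplnr was also negative, while Edn1, Ednrb and Calcrl lay above 0. Of these genes none passed there by edgeR. The part of vessel cell content in these values was not tested. In aPVAT 0 of the 16 endothelial markers passed by edgeR and their median was -0.0384. No marker of these 5 cell types was at 0 in any library. Of the other 8 marker lists (fibroblasts and progenitors, mesothelium, lymphatic endothelium, sympathetic neurons, Schwann cells, skeletal and heart muscle, lymphocytes, red blood cells) 3 genes were lower in tPVAT cKO and 0 higher, S100b, Actc1 and Nppa. In aPVAT 0 of their genes passed by edgeR. Medians of these 8 lists ran from -0.740 (muscle) to 0.250 (sympathetic neurons) in tPVAT and from -0.642 (lymphocytes) to 0.179 (sympathetic neurons) in aPVAT.

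**Figure D3:**
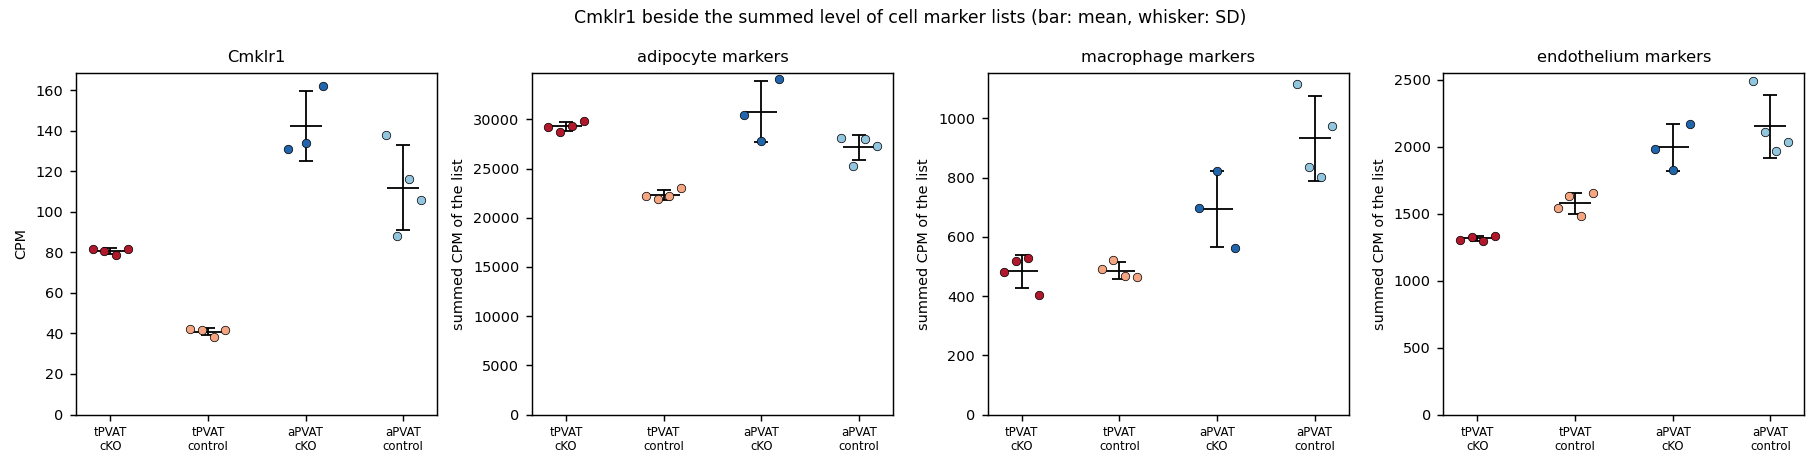
Cmklr1 level in CPM beside the summed CPM of 14 adipocyte, 10 macrophage and 16 endothelial marker genes in each library; each point is 1 library, the bar is the mean and the whisker the SD. In tPVAT the cKO libraries lie above the controls for Cmklr1 and for adipocyte markers, overlap them for macrophage markers, and lie below them for endothelial markers.

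Between depots, marker lists of several cell types were higher in aPVAT together with the members called, and others were lower. Endothelial markers were called higher in 12 of 16 in cKO mice and 11 of 16 in controls, where 2 were lower, with medians of 0.436 and 0.302. Macrophage markers were higher in 8 of 10 in cKO mice and 10 of 10 in controls, with medians of 0.50 and 0.922. Smooth muscle markers were higher in 2 of 10 and lower in 0 in cKO mice, and higher in 0 and lower in 3 in controls. Lymphatic endothelial markers were higher in 5 of 7 in cKO mice and 6 of 7 in controls, with medians of 1.27 and 1.15. Schwann cell markers were higher in 5 of 6 and lower in 1 in each genotype, with medians of 1.24 and 1.11. Sympathetic neuron markers were higher in 8 of 8 in each genotype (medians 0.904 and 0.986), and fibroblast and progenitor markers in 8 of 10 (medians 0.737 and 0.857). Lymphocyte markers were higher in 3 of 8 in cKO mice and 6 of 8 in controls (medians 0.632 and 1.34). Skeletal and heart muscle markers were lower in 5 of 8 in cKO mice and 7 of 8 in controls (medians -1.76 and -4.11), and red blood cell markers in 5 of 5 in each (medians -1.17 and -1.48). Of 7 pericyte markers 3 were higher and 1 lower in cKO mice, and 2 higher and 4 lower in controls (medians 0.136 and -0.274). Of 14 adipocyte markers 6 were higher and 5 lower in cKO mice, and 6 higher and 3 lower in controls (medians -0.119 and 0.0745). Of 6 mesothelial markers 0 were higher in either genotype, with 2 lower in cKO mice and 1 lower in controls (medians -0.720 and -0.385). Edn1, Ednra, Adm and Aplnr, with log2 differences of 0.96 to 1.66, lay above the endothelial medians in both genotypes, as did Ramp2 and Cmklr1. Single endothelial markers spread widely around these medians, with 14 of 16 positive and 2 negative in each genotype. Vwf averaged 456 CPM in aPVAT cKO against 166 CPM in tPVAT cKO, and 525 against 205 CPM in controls. Kdr averaged 119 against 128 CPM in cKO mice and 116 against 160 CPM in controls. Against the lymphatic endothelial and Schwann cell medians, Adm and Aplnr lay lower and Edn1 and Ednra higher in both. Ramp2 also lay lower in both, and Cmklr1 lower in cKO mice and higher in controls. The share of mitochondrial counts also differed between the depots, as given above. The part of cell content in the depot differences was not tested.

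**Figure D4:**
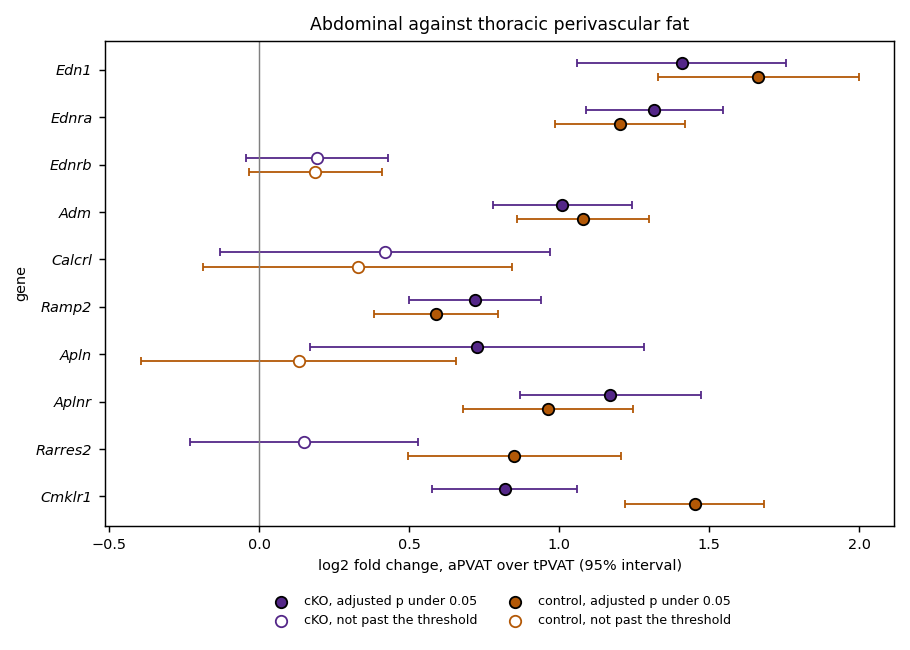
Log2 fold change of aPVAT over tPVAT for each gene with its 95% interval, in cKO mice (purple) and in controls (orange), from edgeR with TMM scaling; filled circles mark an adjusted p under 0.05. Edn1, Ednra, Adm, Ramp2, Aplnr and Cmklr1 are filled in both genotypes, Apln in cKO mice and Rarres2 in controls, and no point lies below 0.

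Other genes of the endothelin system act on the peptide. Of 7 listed, 5 passed the filter, and Edn2 and Kel, with at most 4 counts in a library, did not. None of the 5 was called between genotypes in either depot by edgeR, and 1, Cma1, had an unadjusted p under 0.05, in the lower direction in each depot. Between depots 3 were higher and 1 lower in aPVAT in each genotype. Mme, the peptide-degrading enzyme neprilysin, averaged 79.7 CPM in aPVAT cKO against 213 CPM in tPVAT cKO, and 70.9 CPM in aPVAT control against 197 CPM in tPVAT control. Its log2 differences were -1.42 (SE 0.213, adjusted p = 4.81e-05) and -1.47 (SE 0.194, adjusted p = 9.14e-06). Ece1, which releases endothelin 1 from its precursor, was 0.61 higher in aPVAT cKO (SE 0.0840, adjusted p = 2.11e-05) and 0.56 higher in aPVAT control (SE 0.0785, adjusted p = 1.89e-05). Cma1, the mast cell chymase, was 0.90 and 0.98 higher (adjusted p = 6.75e-05 and 1.09e-05). The third higher gene, Ece2, shares 57.5% of its exon bases with a same-strand gene. Edn3, a further endothelin ligand named after its values were seen, was not called between depots. It averaged 3.26 CPM in aPVAT cKO against 5.04 CPM in tPVAT cKO, and 3.49 against 4.18 CPM in controls. Edn1, Ednra, Ece1 and Cma1 were thus higher in aPVAT and Mme lower, while Ednrb and Edn3 did not pass.

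Of 9 other genes of the adrenomedullin system 7 passed the filter, and 1 was called between genotypes. Ackr3, an atypical chemokine receptor that also takes up adrenomedullin, had 89.7, 94.1, 92.8 and 86.2 CPM in tPVAT cKO, against 133, 132, 132 and 126 CPM in tPVAT control. It fell in tPVAT cKO by 0.53 on the log2 scale (SE 0.0828, adjusted p = 0.000553), without overlap, as held with lower cKO values for 12.2% of all genes. In aPVAT it had 59.3, 58.4 and 52.9 CPM in cKO, against 87.9, 67.6, 63.5 and 72.4 CPM in control. There the groups did not overlap either, as for 5.81% of all genes in that direction, and the difference was -0.36 (SE 0.0899, adjusted p = 0.0648). It passed by DESeq2 (adjusted p = 0.00708) and without aPVAT control 2 or 3 (adjusted p = 0.0444 and 0.0294), within 0.00708 to 0.371. Ackr3 was also lower in aPVAT than in tPVAT, by 0.67 in cKO mice and 0.84 in controls (log2 -0.67 and -0.84, adjusted p = 1.61e-05 and 3.99e-07). Those calls were lost with library size scaling (-0.02 and -0.10, adjusted p = 0.860 and 0.343). Gpr182, an endothelial receptor, was 1.56 higher in aPVAT cKO and 1.37 higher in aPVAT control (adjusted p = 1.43e-07 and 2.01e-07). Calcb, a calcitonin gene-related peptide, was at 3 to 9 counts in aPVAT cKO against 5 to 32 in tPVAT cKO, and at 0 to 10 counts in aPVAT control against 20 to 40 in tPVAT control. It was called lower in aPVAT in both genotypes (adjusted p = 0.0161 and 0.00022), and in cKO mice the call was lost without tPVAT cKO 2 or aPVAT cKO 1 (adjusted p = 0.0527 and 0.0541). It was also lost with library size scaling, library weights or animal as a random replicate block (adjusted p = 0.0726, 0.0649 and 0.0528, lowest over all alternatives 0.00422). Ramp1 and Pam, named after their values were seen, completed the 3 genes called higher in aPVAT cKO. Gpr182 was the single gene of the 7 called higher in controls.

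Of 3 other genes of the apelin system 2 passed the filter, and neither was called between genotypes by edgeR. At an unadjusted p under 0.05 there was 1 in tPVAT, Furin, in the lower direction, and 0 in aPVAT. Furin, a protease that cleaves the apelin precursor, averaged 72.6 CPM in aPVAT cKO against 124 CPM in tPVAT cKO, and 84.3 CPM in aPVAT control against 150 CPM in tPVAT control. The log2 differences were -0.77 (SE 0.105, adjusted p = 1.73e-05) and -0.83 (SE 0.0959, adjusted p = 2.31e-06), and with library size scaling they were -0.12 and -0.09 and not called (adjusted p = 0.340 and 0.462).

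Of 8 other genes of the chemerin system 5 passed the filter: the second receptor Gpr1, the binding receptor Ccrl2, the carboxypeptidase N subunit Cpn2, and the proteases Elane and Plg. Cpn2, the regulatory subunit of an enzyme that trims kinins and chemerin, had the largest changes of the 5. It had 17.4, 12.8, 15.3 and 19.5 CPM in tPVAT cKO, against 65.3, 55.0, 52.2 and 62.8 CPM in tPVAT control. In aPVAT it had 0.249, 0.345 and 0.214 CPM in cKO, against 9.91, 4.42, 7.09 and 5.18 CPM in control. The groups were far apart in both depots, with log2 fold changes of -1.86 (SE 0.196, adjusted p = 1.08e-05) and -4.58 (SE 0.317, adjusted p = 4.05e-06). The aPVAT effect minus the tPVAT effect was -2.72 (SE 0.381, adjusted p = 0.0016). Its catalytic partner Cpn1 had at most 7 counts in a library and was not tested. Elane, neutrophil elastase, which can cut chemerin, was at 17 to 44 counts in tPVAT cKO and 2 to 14 in tPVAT control. It was called 1.79 higher on the log2 scale (SE 0.493, adjusted p = 0.0262), with overlap in CPM. That call was lost when tPVAT cKO 2 or 3, or tPVAT control 1, 2 or 3, was left out (adjusted p = 0.0668 to 0.0779), and with animal as a random replicate block (adjusted p = 0.0691), in a range over all alternatives of 0.00193 to 0.0779. Gpr1, at 26 to 183 counts a library, was 1.05 higher in aPVAT cKO (SE 0.267, adjusted p = 0.00395) and 1.19 higher in aPVAT control (SE 0.249, adjusted p = 0.000753) than in tPVAT. Elane was also higher in aPVAT, by 1.66 in cKO mice (SE 0.402, adjusted p = 0.00269) and 2.15 in controls (SE 0.474, adjusted p = 0.00113). Cpn2 went the other way, with log2 differences of -5.86 in cKO mice (SE 0.317, adjusted p = 1.07e-09) and -3.14 in controls (SE 0.207, adjusted p = 3.82e-09). That made 2 of the 5 higher in aPVAT in each genotype, and 2 lower in cKO mice (Cpn2 and Plg) and 1 lower in controls (Cpn2). The Plg call rested on few reads, at 0 to 4 counts in aPVAT cKO and 3 to 17 in tPVAT cKO. Ccrl2, named like Plg after its values were seen, was not called, at -0.32 in cKO mice (adjusted p = 0.0617) and -0.10 in controls (adjusted p = 0.512). Of the 3 receptors, Cmklr1 and Gpr1 were thus higher in aPVAT and Ccrl2 did not pass.

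For the 4 members whose group means spread most, the genes with the most similar pattern were sought by the root mean square difference of centred log2 CPM over the 15 libraries. Cmklr1, whose group means spanned 1.79 on the log2 scale, was closest to Rab32 (0.175), Rasa3 (0.182) and Bnc2 (0.185). Edn1, with a span of 1.66, was closest to Cth (0.174), Cers6 (0.190) and Egfr (0.192). Ednra, with a span of 1.34, was closest to Gata3 (0.125), Lrrn1 (0.129) and Atp2b4 (0.134). Aplnr, with a span of 1.15, was closest to Tle1 (0.136), Selenbp1 (0.137) and Amigo2 (0.154). The libraries share depot, genotype and depth, so these are descriptions of likeness and carry no test. Ednrb, with a span of 0.314, varied least over the 4 groups.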

How the data were processed

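The authors deposited raw counts in 1 table of 43352 Ensembl genes by 15 libraries, all whole numbers, whose totals differ between libraries. Per the submitters' processing notes the build was mm10, and Salmon, Subread and DESeq2 1.42.1 are named without a role. The counting tool, its gene annotation and its handling of strand were not given in the sources used here, so genes that overlap others may hold their reads. No aPVAT cKO 2 was analysed here. Per the labels' protocols, frozen tissue was pulverised, RNA was extracted with TRIzol and columns, and stranded mRNA libraries were made.

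Columns were matched to samples by depot, genotype and number. Symbols, locations and lengths came from GENCODE M21 on GRCm38, which held 42468 of the identifiers (98.0%). The fit used edgeR 4.0.16 in R 4.3.3: filterByExpr (minimum count 10), TMM scaling, 1 quasi-likelihood fit with a mean for each of 4 groups over all 15 libraries, and Benjamini-Hochberg adjustment over the 19645 genes tested, with a threshold of 0.05. Genes removed numbered 23707. CPM uses TMM-scaled library sizes. Libraries held 37.8 to 68.7 M counts, so counting error is small for the 10 genes, which had at least 155 counts in each library. No library pair of a group agreed within sampling noise. The script was tested on simulated counts.

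Alternatives were DESeq2 1.42.0 and its size factors, library size alone, no filter, limma-voom (limma 3.58.1) with library weights, 2 groups alone, replicate blocks, mitochondrial genes left out, 2 libraries with much structural RNA left out, and each library left out in turn. Leaving out the ribosomal locus Gm42418 and the length of all exons were added after seeing the data.

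Members and lists were chosen with earlier results of these data known. Named are all 10 members. Of their pathway lists, named are genes called between genotypes or in the interaction, and up to 3 per system by depot p, of which 1 gene is not reported here. Also named are up to 2 genes per marker list with the smallest genotype p, Prdm16, and the 3 genes most like each of 4 members. The other called markers were named after their values were seen, and markers that were not called stand only in their list's counts. Fibroblast, mesothelial, lymphatic, neuronal, Schwann cell, muscle, lymphocyte and red cell markers were also summed.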

Additional observations from a re-analysis of the deposited data

Results flagged for a closer look

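In 4 of 105 groups of 4 libraries looked at, 1 library stood far from the other 3, where chance gives about 1 in 20. Ednrb was at 31.0 CPM in aPVAT control 1, and at 37.1 to 38.0 CPM in the other aPVAT controls. Cmklr1 was at 38.1 CPM in tPVAT control 3, against 41.6 to 42.3 CPM in the other tPVAT controls, all of them below every tPVAT cKO library. Cma1 was at 17.7 CPM in aPVAT control 1, and at 12.0 to 12.9 CPM in the others. The summed pericyte markers were at 1048 CPM in aPVAT control 2, the library with the highest Calcrl, and at 746 to 762 CPM in the other aPVAT controls. The 3 aPVAT cKO libraries were at 979 to 1039 CPM, and a link between these sums and Calcrl was not tested.

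The genotype effect differed between depots, by the test of the difference itself, in 3 of the genes named. The aPVAT effect minus the tPVAT effect was -2.72 for Cpn2 (adjusted p = 0.0016), -1.42 for Retn (adjusted p = 0.000395) and -0.91 for Cfd (adjusted p = 0.00622). For Cpn2 the fall was larger in aPVAT. For Retn and Cfd, both adipocyte markers that were higher in tPVAT cKO, the effect in aPVAT was smaller, as the value of Cmklr1 was, at -0.63 and adjusted p = 0.0893.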

How the results depend on the processing

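Over 43 results on the 10 genes and 26 alternatives, 1065 of 1115 values kept their direction and their side of the threshold, 28 newly passed it, 4 no longer passed it and 18 changed sign, all 18 in differences that were not called. The genes called in tPVAT cKO against tPVAT control (1069 higher and 1298 lower) were 4080 in all with limma-voom library weights and 3726 with the 2 groups alone, and 1708 to 3273 without 1 library each. The members called there (1) were 2 with library weights (with Ramp2), 4 with the 2 groups alone (with Calcrl, Ramp2 and Rarres2) and 2 without aPVAT control 2 and aPVAT cKO 4. In aPVAT the 301 genes called were 604 with DESeq2, 92 with the 2 groups alone and 161 to 398 without 1 library each, lowest without aPVAT cKO 1. The members called there (0) were 1 with DESeq2 (Apln), 1 without the same pair of libraries (Calcrl), and 0 to 1 without 1 library each (Cmklr1, without aPVAT control 1). In the interaction the 154 genes called were 350 with DESeq2. Its members called (0) were 1, Cmklr1, with library size alone, DESeq2, library weights or without that pair, and 0 to 1 without 1 library each. The interaction split of called genes was 20.1% higher, and 9.5% with library size alone.

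Signs changed in these log2 differences between genotypes. In tPVAT, Adm was 0.068 with library size alone and 0.0091 with the 2 groups alone, and without 1 library each it ran from -0.050 to 0.054 and Ednra from -0.032 to 0.091. In aPVAT, Edn1 was 0.051 and Aplnr -0.050 with library weights, and Aplnr was -0.031 with the number block and -0.23 without the pair of libraries. Without 1 library each, Edn1 ran from -0.17 to 0.029, Ednrb from -0.027 to 0.27, Adm from -0.15 to 0.023 and Aplnr from -0.14 to 0.15. Between depots in controls, Calcrl was -0.059 without that pair and ran from -0.060 to 0.55 without 1 library each, and Apln ran from -0.025 to 0.33. The cause of these shifts was not tested.

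The labels do not say whether a shared number marks 1 animal, and the low correlations here cannot settle it. Deviations from the group mean correlated at -0.03 to 0.165 between depots for the same genotype and number, with 1 of 7 over 0.1, and at -0.222 to 0.169 between genotypes, with 3 of 7 over 0.1. The medians were 0.0325 and 0.0608, beside -0.0209 and -0.017 for pairs with other numbers. With the number as a replicate block 1050 genes were higher and 1342 lower in tPVAT cKO, 136 and 176 in aPVAT cKO, and 23 and 137 in the interaction. With animal as a random replicate block (estimated correlation 0.0217) the counts were 992 and 1279, 154 and 154, and 31 and 119. No member was called differently under either block. Of the pathway genes named, the calls of Elane in tPVAT and of Calcb between depots in cKO mice were lost under the animal block (adjusted p = 0.0691 and 0.0528). Bulk depth limits genes of few counts here, such as Calcb, Elane, Gpr1 and Plg, more than the 10 members.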
